A study of Mus musculus with 14 samples.

Results

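The thrombospondins are a family of 5 secreted glycoproteins encoded in the mouse by Thbs1, Thbs2, Thbs3, Thbs4 and Comp, and all 5 genes were measured in mouse ventricle after myocardial infarction (MI). Probes were assigned to a member when their array accession is a RefSeq transcript of that gene. This gave 6 of 55482 probes, for 5 of 20614 named genes, with 2 probes for Thbs3 and 1 for each of the others. The samples were 14 arrays of heart tissue from male C57BL/6 mice operated at 8 weeks of age, 1 sample per array. Of these, 5 were taken 14 days after a coronary artery, the left anterior descending, was ligated (MI 14 days), 5 were taken 3 days after it (MI 3 days), and 4 came from mice that had the operation without ligation (sham). No genetic change or drug is named for any group, the tissue was the border zone of the ventricles, and the time at which the sham hearts were taken is not stated. The design speaks of 10 ligated and 5 sham mice, of which 4 sham arrays were analysed here. The labels do not say which mouse each array came from, so p-values measure the spread between these samples.

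Thrombospondins are matricellular proteins: they are secreted into the extracellular matrix, bind calcium, collagens, proteases and growth factors there, and signal to cells through receptors such as Cd36, Cd47, Lrp1 and integrins. Thbs1 and Thbs2 assemble as trimers and carry the repeats that block angiogenesis, and Thbs1 is also stored in platelets and can activate latent TGF-beta. Thbs3, Thbs4 and Comp assemble as pentamers. Thbs4 is known in the mouse heart for its rise under pressure load and for binding Atf6, a sensor of endoplasmic reticulum stress, and Comp, the cartilage oligomeric matrix protein, binds collagen fibrils in cartilage and tendon.

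The level of a probe is given as log2 of its signal minus the 75th percentile of the signals of its array, so 0 marks that percentile and each unit is a doubling. That percentile ranged over the arrays from 188.6 to 443 intensity units. Scanner output gave a detection flag for 10 arrays, with 54.8% to 66.1% of probes well above background. All 6 thrombospondin probes were so on each of them, and no spot of theirs was saturated or marked as an outlier. These arrays were all 4 sham arrays, 4 of 5 at MI 14 days and 2 of 5 at MI 3 days. The array of MI 14 days replicate 3 had the lowest mean correlation with the other arrays of its group (0.976, across probes, which are not independent replicates) and 68 non-uniform spots. Of 7 ventricular cardiomyocyte markers, all were tested, and their summed signal was 5982 to 8143 times the 75th percentile at MI 14 days, 3469 to 4202 at MI 3 days and 5518 to 7141 in sham hearts. These are pieces of tissue, and fewer cells of a type and less RNA per cell cannot be told apart.

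All 5 genes were higher than sham at 14 days, and at 3 days 4 were higher and 1, Comp, was lower. The genes had 3 kinds of time course. Thbs1 had its highest mean at 3 days, Thbs2, Thbs3 and Thbs4 had their highest mean at 14 days and were already raised at 3 days, and Comp was lowest at 3 days and highest at 14 days. The step of Thbs2 between the times lost its call on the 10 scanner arrays. It was 0.24 there (limma adjusted p = 0.607) and 0.03 with the slide as a block (limma adjusted p = 0.963). These arrays hold 2 of the 5 MI 3 days arrays, replicates 4 and 5, whose Thbs2 levels (0.54 and 1.04) were the highest of their group. At MI 14 days against sham the 5 calls higher compare with 15.9% of all 14867 named genes tested, by 1 probe each, and 24.2% of those genes were lower. At MI 3 days against sham, the 4 calls higher compare with 29.8% of genes and the 1 call lower with 40.5%. Between the times, at MI 14 days against MI 3 days, 4 were higher, against a background of 33.6%, and 1 was lower, against 26.9%. A call is a Benjamini-Hochberg adjusted p under 0.05 over all probes tested, from limma on all 3 groups. At MI 14 days against sham, all arrays of the first group were above all of the second in 5 of 5 members, against 13.3% of all genes. At MI 3 days against sham this held for 4 members (27.1% of genes), and for 1 all arrays were below (36.1% of genes). At MI 14 days against MI 3 days all arrays were above in 3 members, against 23.8% of genes. The median log2 change of the 5 genes was 3.03 at 14 days and 0.96 at 3 days, beside -0.08 and -0.15 over all genes tested.

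**Figure D1:**
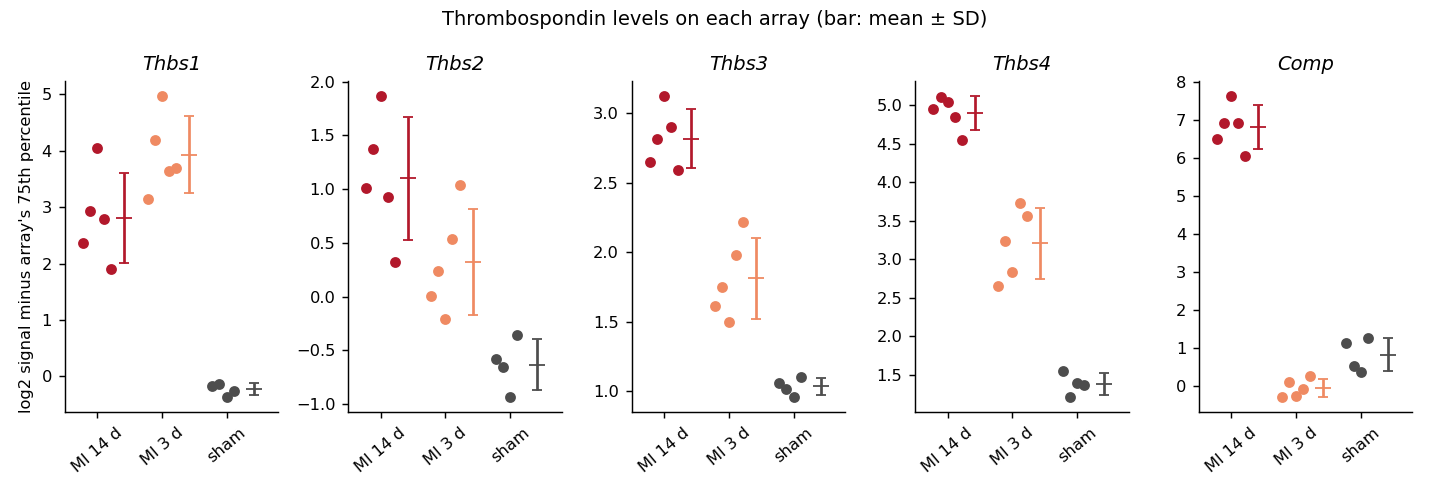
Level of each thrombospondin gene on each array, on the log2 scale relative to the 75th percentile (vertical axes differ between genes), at MI 14 days (n = 5), MI 3 days (n = 5) and in sham hearts (n = 4). Points are arrays and bars are the mean ± SD. Comp lay between 6.06 and 7.64 at MI 14 days, above every other array. Thbs1 had its highest mean at MI 3 days, with arrays of the 2 MI groups overlapping.

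Comp had log2 levels of 6.52, 6.93, 7.64, 6.93 and 6.06 on the MI 14 days arrays, -0.29, 0.10, -0.28, -0.10 and 0.25 on the MI 3 days arrays, and 1.13, 0.52, 0.37 and 1.25 on the sham arrays. The 3 groups did not overlap, and the gap between the highest MI 3 days array and the lowest sham array was 0.12. Comp was 63.9-fold higher than sham at 14 days (log2 fold change 6.00 ± 0.27, SE, limma adjusted p = 8.09e-08). That was rank 1 of the 14867 genes by fitted change. At 3 days Comp was lower than sham, by a log2 change of -0.88 ± 0.27, with a limma adjusted p of 0.0115. Means were -0.06 ± 0.24 at MI 3 days (SD, n = 5) and 0.82 ± 0.44 in sham hearts (SD, n = 4). That fall lost its call on the 10 scanner arrays, which hold 2 of the MI 3 days arrays (-0.74, limma adjusted p = 0.142). Between the 2 times Comp was 118-fold higher at 14 days (6.88 ± 0.26, limma adjusted p = 9.53e-10), again rank 1 of 14867.

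Thbs4 had log2 levels of 4.95, 5.11, 5.04, 4.84 and 4.55 at MI 14 days, 2.65, 3.24, 2.83, 3.74 and 3.57 at MI 3 days, and 1.55, 1.21, 1.39 and 1.36 in sham hearts. No 2 groups overlapped. It was 11.5-fold higher than sham at 14 days (3.52 ± 0.20, limma adjusted p = 2.68e-07), rank 31 of 14867 genes, and 3.55-fold higher at 3 days (1.83 ± 0.20, limma adjusted p = 2.51e-06). The step between the times was a 3.24-fold rise at 14 days over 3 days (1.69 ± 0.19, limma adjusted p = 6.01e-06). The 5 arrays at 14 days had an SD of 0.22, against 0.46 over the 5 arrays at 3 days and 0.14 over the 4 sham arrays.

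Thbs3, a pentameric member, was measured by 2 probes. The brighter had log2 levels of 2.65, 2.82, 3.12, 2.90 and 2.59 at MI 14 days, 1.61, 1.75, 1.499, 1.98 and 2.22 at MI 3 days, and 1.06, 1.02, 0.96 and 1.10 in sham hearts. The groups did not overlap, and the sham arrays had an SD of 0.06. Thbs3 was 3.43-fold higher than sham at 14 days (1.78 ± 0.14, limma adjusted p = 3.77e-06) and 1.71-fold higher at 3 days (0.78 ± 0.14, limma adjusted p = 0.000292). At 14 days it was 2.01-fold higher than at 3 days (1.004 ± 0.135, limma adjusted p = 3.07e-05). The second probe gave log2 changes of 1.80, 0.86 and 0.94 for the same comparisons, at most 0.086 away from those of the first.

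Thbs2, known from mice without it as a matrix protein needed for collagen fibril order, had log2 levels of 1.01, 1.37, 1.87, 0.92 and 0.32 at MI 14 days, 0.00, 0.24, -0.21, 0.54 and 1.04 at MI 3 days, and -0.58, -0.66, -0.93 and -0.36 in sham hearts. Every array of either MI group was above every sham array, while the 2 MI groups overlapped. Thbs2 was 3.32-fold higher than sham at 14 days (1.73 ± 0.29, limma adjusted p = 0.0007) and 1.94-fold higher at 3 days (0.96 ± 0.29, limma adjusted p = 0.00996). Between the times it was 1.71-fold higher at 14 days (0.78 ± 0.27, limma adjusted p = 0.0261). That last call ended when any of 4 arrays was left out. The adjusted p was 0.0638 without MI 14 days replicate 3, 0.0571 without MI 14 days replicate 2, 0.0699 without MI 3 days replicate 3 and 0.0602 without MI 3 days replicate 1.

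Thbs1 had log2 levels of 2.37, 2.93, 4.04, 2.79 and 1.90 at MI 14 days, 3.15, 4.19, 4.97, 3.65 and 3.70 at MI 3 days, and -0.17, -0.13, -0.37 and -0.25 in sham hearts. The lowest infarct array stood 2.03 log2 units above the highest sham array, and the 2 MI groups overlapped. Thbs1 was 8.2-fold higher than sham at 14 days (3.03 ± 0.39, limma adjusted p = 0.000118) and 17.9-fold higher at 3 days (4.16 ± 0.39, limma adjusted p = 5.7e-07). Those changes were rank 55 and rank 100 of 14867 genes. Between the times the mean was 2.81 ± 0.80 at MI 14 days and 3.93 ± 0.69 at MI 3 days (SD, n = 5 each), a log2 change of -1.13 ± 0.37 with a limma adjusted p of 0.0182. An exact permutation test over the same 10 arrays gave p = 0.0556 for this fall.

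**Figure D2:**
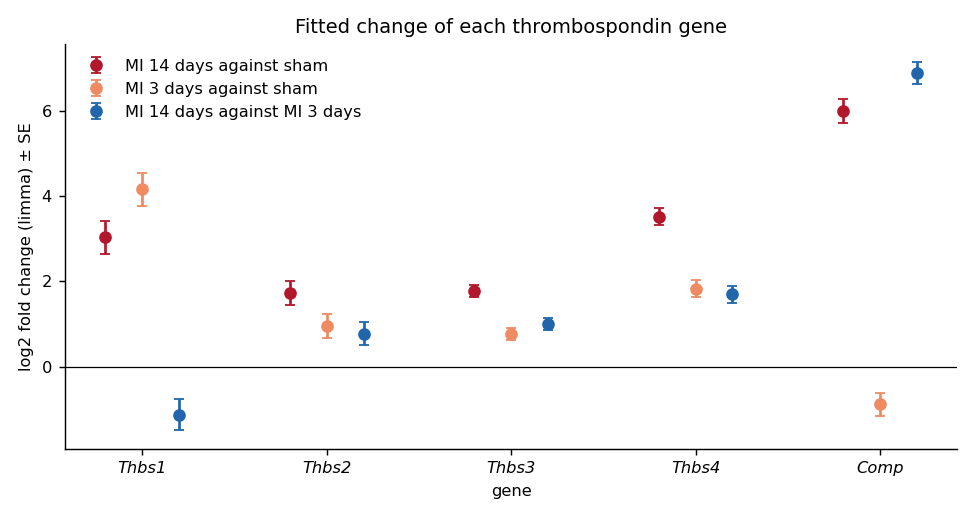
Fitted log2 fold change of each thrombospondin gene (points) with its SE (bars) from limma, for MI 14 days against sham, MI 3 days against sham, and MI 14 days against MI 3 days. Thbs1 is the member with a negative change between the times (-1.13), and Comp is the member with a negative change at 3 days (-0.88).

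The members changed by unequal amounts. Each pair was compared by an exact permutation test over arrays of the difference between its 2 genes within each array, two-sided, 10 pairs in each of 3 comparisons. Of these 30 tests, 26 had a Benjamini-Hochberg adjusted p of at most 0.0183, over the 30 tests, and the smallest p these designs allow is 0.00794. At 3 days the change of Thbs1 exceeded that of Thbs2 by 3.21, of Thbs3 by 3.39 and of Thbs4 by 2.33 on the log2 scale (adjusted exact permutation p = 0.0099 for each). At 14 days the change of Comp exceeded that of Thbs4 by 2.48 and that of Thbs1 by 2.96 (adjusted exact permutation p = 0.0099 for each). Thbs1 and Thbs4 were not shown to differ at 14 days, where their changes were 0.49 apart (adjusted exact permutation p = 0.229). Thbs2 and Thbs3 were not shown to differ in any comparison. Their changes were 0.05 apart at 14 days against sham, 0.18 apart at 3 days against sham and 0.23 apart between the times (adjusted exact permutation p = 0.857, 0.247 and 0.304). Tests that miss the threshold do not show that the changes were equal.

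Within a group, some arrays were high or low in several members. MI 14 days replicate 5 had the lowest level of its group in all 5 genes, and MI 14 days replicate 3 had the highest in 4 of them, with Thbs4 highest in replicate 2. At 3 days, replicates 4 and 5 were above replicates 1 to 3 in Thbs2, Thbs3 and Thbs4, and replicate 3 was highest in Thbs1 and lowest in Thbs2 and Thbs3. Several marker sums had the same arrays at their ends. The summed signal of 7 fibroblast markers was 1448 in MI 14 days replicate 3 and 1004 in replicate 5, the highest and lowest of their group, and 911 and 1002 in MI 3 days replicates 4 and 5, the 2 highest of theirs, in multiples of the 75th percentile. The sum of 6 smooth muscle and pericyte markers was 67.5 in MI 14 days replicate 3 and 49.7 in replicate 5, also the ends of their group, and 89.0 and 101.7 in MI 3 days replicates 4 and 5, the 2 highest. The sum of 7 macrophage markers was 72.9 in MI 14 days replicate 3 and 51.8 in replicate 5, again the ends. Other sums went the other way. That of 7 cardiomyocyte markers was highest of its group in MI 14 days replicate 5 (8143) and was 6054 in replicate 3. The sum of 6 neutrophil markers was also highest in replicate 5 (238), with 216 in replicate 3. Csf3r made up most of this sum, with mean log2 levels of 7.77 at MI 14 days, 7.52 at MI 3 days and 7.71 in sham hearts. The sum therefore mainly reads that 1 probe. Over all arrays the fibroblast sum was 1004 to 1448 at MI 14 days, 714 to 1002 at MI 3 days and 397 to 417 in sham hearts. All 7 fibroblast markers were higher at 14 days, beside 15.9% of all genes. At 3 days 5 were higher and 1 lower, beside 29.8% and 40.5% of all genes. Each of the 7 was above background on every scanner array, and their part in the changes of the thrombospondins was not tested.

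Other cells that make thrombospondins were read from their markers. Thbs1 is stored in platelets, and of 9 platelet and megakaryocyte markers 5 passed the filter on dim probes. Of these, none was called at 14 days, where 15.9% of all genes were higher and 24.2% lower. At 3 days 3 were higher, beside 29.8% of all genes. These were the platelet chemokines Pf4 (2.62 ± 0.15, log2 change ± SE) and Ppbp (2.65 ± 0.52) and the adhesion receptor chain Gp1bb (0.64 ± 0.20). The summed signal of the 9 was 13.6 to 23.4 at MI 14 days, 77.6 to 141 at MI 3 days and 16.3 to 17.1 in sham hearts. Pf4 made up most of this sum, with mean log2 levels of 3.76 at MI 14 days, 6.54 at MI 3 days and 3.92 in sham hearts. The platelet sum therefore mainly reads that 1 gene. The MI 3 days array with the highest platelet sum, replicate 3, was also the array with the highest Thbs1, and its macrophage sum (156) was the highest of its group too. At 14 days the platelet sum was below that of every sham array on 4 of 5 arrays. Pf4 had a change of -0.16 at 14 days (limma adjusted p = 0.454), and the median change of the 5 tested markers was 0.44. The sum of 7 macrophage markers was 51.8 to 72.9 at MI 14 days, 89.5 to 156 at MI 3 days and 41.4 to 53.6 in sham hearts. Of the 7, 3 were higher at 14 days and all 7 at 3 days, beside 15.9% and 29.8% of all genes. The part of platelets or macrophages in the Thbs1 change was not tested.

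Beside Comp stand 10 further markers of cartilage and tendon cells. Their summed signal was 11.1 to 20.8 at MI 14 days, 5.98 to 8.38 at MI 3 days and 4.99 to 6.77 in sham hearts. Scx made up most of this sum, with mean log2 levels of 3.54 at MI 14 days, 2.53 at MI 3 days and 2.24 in sham hearts. Comp included, 6 of the 8 tested were higher and 1 was lower at 14 days, beside 15.9% and 24.2% of all genes. At 3 days 2 were higher and 4 lower, beside 29.8% and 40.5%. The 3-day counts take in Col2a1 (higher) and Tnmd (lower), which were above background on no scanner array of MI 3 days or sham. Both passed the filter through MI 14 days alone, and both are among the 6 counted higher there. Acan, the aggregating proteoglycan of cartilage, was higher at 14 days by 2.12 and had a change of 0.13 at 3 days that missed the threshold (limma adjusted p = 0.615). Tnmd, a tendon membrane protein, was too dim to be above background in MI 3 days or sham hearts. It was at least 3.7-fold higher than sham at 14 days. Col2a1, the fibril collagen of cartilage, was likewise above background at 14 days alone, where it was at least 11-fold higher than sham. Such a bound sets the bright group's mean against the lowest signal counted as above background on each dim array, or the probe's own signal if that is higher. Other markers of the list did not rise. Col9a1 was lower at 14 days (-0.60) and at 3 days (-0.91). Chad had a value of 0.42 at 14 days that missed the threshold (limma adjusted p = 0.1) and was lower at 3 days (-1.22). Cnmd and Hapln1 did not pass the filter, and their means were lower at MI 14 days than in sham hearts. Matn3 was not above background on any scanner array. The part of cartilage or tendon cells in the Comp change was not tested.

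The cell-surface partners of the thrombospondins were read from a list of 17 genes, all of which passed the filter on dim probes. At 14 days 9 were higher and 3 lower than sham, beside 15.9% and 24.2% of all genes. At 3 days 14 were higher and 3 lower, beside 29.8% and 40.5%. The largest rises at 14 days were in Sdc1, a heparan sulfate proteoglycan (1.87), Lrp1, the endocytic receptor that clears thrombospondin 1 and 2 (1.20), and Itgav, the integrin alpha v chain (1.01). At 3 days Sdc1 (3.00) and Itgb3, the partner chain of Itgav (2.78), rose with Lrp8, a receptor of the LDL receptor family. Lrp8 was not above background in sham hearts and passed the filter through MI 3 days alone. The higher counts at both times take it in. It was at least 4.23-fold higher than sham at 3 days. Vldlr, Cd36 and Cacna2d1 fell at each time. Vldlr, a receptor reported to bind thrombospondin 1, changed by -0.65 at 14 days and -1.92 at 3 days. Cd36, the fatty acid transporter that binds the antiangiogenic repeats of Thbs1 and Thbs2, changed by -0.59 at 14 days and -1.08 at 3 days. Cacna2d1, a calcium channel subunit that binds thrombospondins at synapses, changed by -0.51 at 14 days and -1.14 at 3 days. Cd47, the other classical Thbs1 receptor, was higher at 3 days by 0.28 (limma adjusted p = 0.00936) and had a value of -0.13 at 14 days (limma adjusted p = 0.265). The median change of the list was 0.48 at 14 days, or 0.34 without Lrp8, and 1.39 at 3 days. Between the times 3 were higher and 12 lower at 14 days, beside 33.6% and 26.9% of all genes.

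Among 16 genes of TGF-beta ligands, latency proteins and early targets, 14 were higher and none lower at 14 days, beside 15.9% and 24.2% of all genes. At 3 days 14 were higher and 2 lower, beside 29.8% and 40.5%. The median log2 change was 0.79 at 14 days and 1.10 at 3 days. Ltbp2 (4.61 at 14 days, 3.70 at 3 days), a microfibril protein of the latent TGF-beta binding family, and Postn, the matricellular periostin (3.45 at 14 days, 3.36 at 3 days), were among the 3 largest rises at both times. Ccn2, connective tissue growth factor, rose by 3.06 at 14 days and 3.13 at 3 days. The ligand Tgfb1, whose latent form Thbs1 activates in other tissues, was higher at 3 days by 1.04 and had a value of 0.11 at 14 days (limma adjusted p = 0.431). Tgfb3, in contrast, was higher by 2.03 at 14 days and by 0.95 at 3 days. Ltbp4 and Ltbp1, 2 further latency proteins, were lower at 3 days by log2 changes of -1.06 and -0.81, and Ltbp4 was higher at 14 days by 0.78.

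Of 13 proteases reported to cut or bind thrombospondins or Comp, 11 passed the filter. At 14 days 4 were higher and 2 lower, beside 15.9% and 24.2% of all genes. At 3 days 6 were higher and 3 lower, beside 29.8% and 40.5%. Adamts4, an aggrecanase that also cuts Comp, rose by 1.69 at 14 days and by 5.42 at 3 days. Mmp14, a membrane-bound collagenase, rose by 1.81 at 14 days and 3.28 at 3 days. Mmp2, a gelatinase, was higher at 14 days by 2.02 and lower at 3 days, with a log2 change of -0.65. Mmp9 was above background in the MI 3 days group alone, through which it passed the filter. It was at least 7.67-fold higher than sham there and is 1 of the 6 counted higher at 3 days. Adamts7, which binds and cuts Comp, fell by 1.07 at 14 days and fell by 1.38 at 3 days. Adamts12, its closest relative, was not above background in any sham array. It was at least 1.87-fold higher than sham at 14 days and at least 2.22-fold higher at 3 days. Htra1, a serine protease, fell by 0.51 at 14 days and fell by 0.66 at 3 days.

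Matrix partners of Comp and the thrombospondins were a list of 22 genes, of which 21 had a named probe and 18 passed the filter. At 14 days 16 were higher and 1 lower than sham (15.9% and 24.2% of all genes), with a median log2 change of 2.05. At 3 days 9 were higher and 4 lower (29.8% and 40.5% of all genes). The median was 1.32, or 1.06 without Col2a1, which is 1 of the 9 and was not above background in either group. Fmod, fibromodulin, a small proteoglycan on collagen fibrils, was higher at 14 days by 3.72 and lower at 3 days, by a log2 change of -0.82. Eln, elastin, was also higher at 14 days (2.60) and lower at 3 days (-0.999). Dcn, decorin, went the same way with 0.81 at 14 days and -0.56 at 3 days. Fn1, fibronectin, was higher at both times, by 2.93 at 14 days and 3.68 at 3 days, as was Col1a1, the alpha 1 chain of type I collagen (2.49 at 14 days, 2.81 at 3 days). Tnfaip6, a hyaluronan-binding protein, rose by 1.28 at 14 days and 2.67 at 3 days. Of the minor cartilage collagen type IX, which binds Comp, Col9a1 fell at both times, by log2 changes of -0.60 at 14 days and -0.91 at 3 days. Col9a2 was higher at 14 days by 1.83 and had a value of 0.17 at 3 days that missed the threshold (limma adjusted p = 0.645). Matn4, a matrilin, rose by 2.74 at 14 days and had a value of -0.19 at 3 days (limma adjusted p = 0.505).

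Atf6, which Thbs4 binds in mouse heart, and chaperone genes of the endoplasmic reticulum were a list of 20 genes, all of which passed the filter. At 14 days 6 were higher and 3 lower than sham, beside 15.9% and 24.2% of all genes. At 3 days 11 were higher and 6 lower, beside 29.8% and 40.5%. Median log2 changes were 0.16 at 14 days and 0.61 at 3 days. Atf6 itself was lower at both times, by log2 changes of -0.45 at 14 days and -0.80 at 3 days. Hspa5, the main chaperone of the compartment and a standard Atf6 target, had values of -0.14 at 14 days and 0.11 at 3 days, neither past the threshold (limma adjusted p = 0.626 and 0.637). Pdia4, a disulfide isomerase, rose by 1.11 at 14 days and 1.79 at 3 days, and Creld2, a secreted stress response protein, by 0.94 at 14 days and 1.34 at 3 days. Herpud1, a degradation factor, fell by 1.08 at 14 days and fell by 1.74 at 3 days. Between the times, at MI 14 days against MI 3 days, 10 of these 20 genes were lower and 6 higher, beside 26.9% and 33.6% of all genes, and a link to Thbs4 was not tested.

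Transcription factors of cartilage and tendon were a list of 9 genes, of which 8 passed the filter. At 14 days 6 were higher and 1 lower, beside 15.9% and 24.2% of all genes. At 3 days 5 were higher and 2 lower, beside 29.8% and 40.5%. Both higher counts take in Runx2, which passed the filter through MI 3 days alone. It was above background on 1 of 4 scanner arrays at MI 14 days and on no sham array. Sox9, the master regulator of chondrocytes, rose by 2.24 ± 0.31 at 14 days and 1.73 ± 0.31 at 3 days. Scx, scleraxis, the tendon factor, rose by 1.30 ± 0.17 at 14 days and had a value of 0.29 at 3 days that missed the threshold (limma adjusted p = 0.141). Foxc2, a forkhead factor, rose by 1.34 at 14 days and 1.72 at 3 days. Sox6, a partner of Sox9 in cartilage, was lower at both times, by log2 changes of -1.18 at 14 days and -1.998 at 3 days. The median change was 1.30 at 14 days and 0.59 at 3 days, or 0.84 and 0.36 with Runx2, which was not above background in sham hearts, at its bound.

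**Figure D3:**
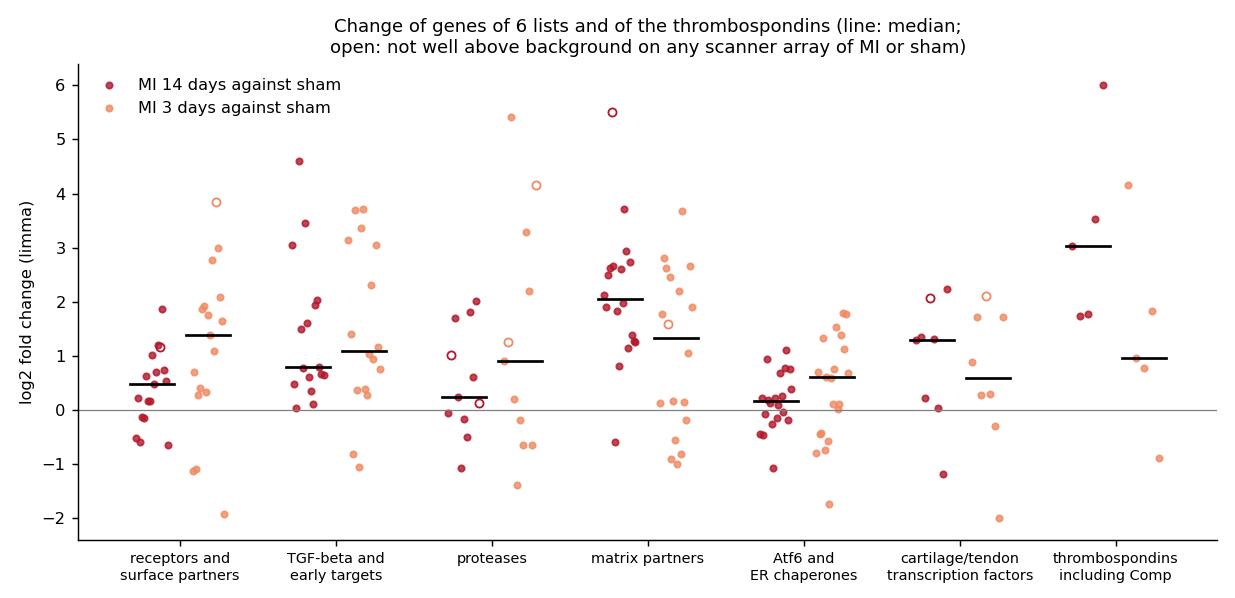
Log2 fold change of each tested gene (points) of 6 gene lists and of the 5 thrombospondin genes, at MI 14 days and MI 3 days against sham. Black lines are list medians, and open points are genes above background on no scanner array of the MI group or of the sham group, whose fitted value is no measured fold. The median of the matrix partners was 2.05 at 14 days and that of the thrombospondins was 3.03.

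Each member was set beside the named genes with the most similar profile, by the root mean square of the log2 difference over the 14 arrays after each gene was centred on its own sham mean. Closest to Thbs1 were Gdf15, a stress cytokine of the TGF-beta family (0.41), Ccn4, a matricellular protein (0.46), Fn1 (0.46), Rgs1, a regulator of G protein signalling that was not above background in sham hearts (0.57), and Lox, the collagen crosslinking enzyme (0.63). Closest to Thbs4 were Cilp, the cartilage intermediate layer protein (0.33), Frzb, a secreted Wnt inhibitor (0.38), Ptn, pleiotrophin (0.41), Srgap3 (0.50), and Myh7, the slow myosin heavy chain of stressed mouse ventricle (0.52). Closest to Thbs2 were Mfap2, a microfibril protein (0.24), Serpinf1, a secreted inhibitor of angiogenesis (0.27), Thbs3 itself (0.28), Kcnj15, a potassium channel (0.28), and Ldlrad4, an inhibitor of TGF-beta signalling (0.29). Closest to Thbs3 were Kcnj15 (0.20), the growth factor Tgfb3 (0.21), Svep1, a matrix adhesion protein (0.21), Gpc6, a glypican (0.23), and Greb1l (0.24).

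The distance takes in the size of a change, and that of Comp at 14 days against sham was rank 1 of 14867 genes. The 5 genes nearest to Comp lay further from it than those of the other members did from theirs. They were Col8a2, a short-chain collagen (1.12), Ecrg4, a secreted peptide precursor (1.17), Fmod (1.39), Sfrp2, a secreted Wnt modulator (1.44), and Atp6v0a4, a proton pump subunit (1.48). Of these, Ecrg4 had log2 changes of 4.14 at 14 days and -1.13 at 3 days, and Fmod had 3.72 and -0.82, both with the fall then rise of Comp. Sfrp2 had 4.76 and 1.13. Among the members themselves the distance was 0.28 between Thbs2 and Thbs3 and 1.22 to 3.53 for the other pairs, the largest being Thbs1 and Comp.

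**Figure D4:**
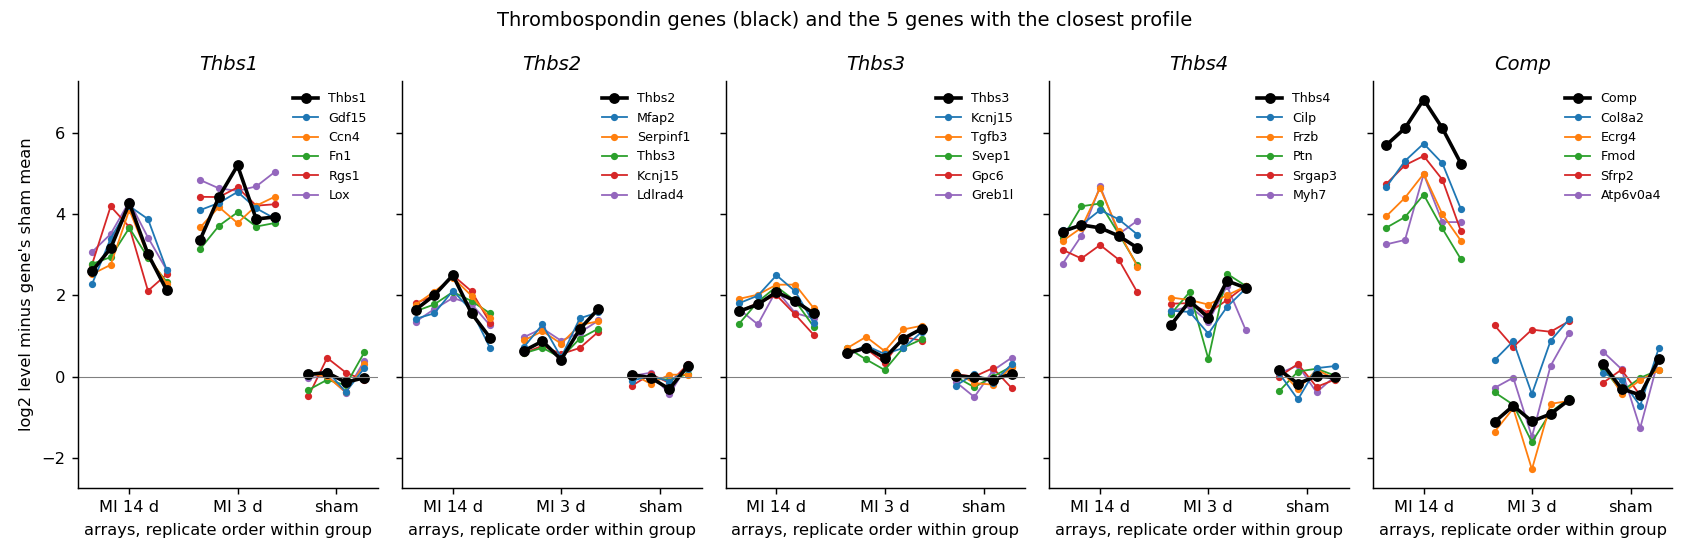
Log2 level of each thrombospondin gene (black) and of the 5 named genes nearest to it by profile (colours), minus the gene's own sham mean, on the arrays of MI 14 days, MI 3 days and sham. Lines only join the values of 1 gene within a group, since replicates have no order. Comp, rank 1 of 14867 genes at MI 14 days against sham, rises further there than any of its 5 nearest genes.

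The promoters of Thbs2 and Thbs3, whose changes were not shown to differ, and of Thbs4, which rose more, are shown as RefSeq places them on assembly GRCm38.p6, from 250 bases before to 50 bases after the start of the gene. The promoter table holds 3 of the 5 members, and Thbs1 and Comp are those without an entry. Capitals mark matches, on either strand, to TATAAA (the TATA box), CCAAT (the CCAAT box), GGGCGG (the GC box), TGANTCA (the AP-1 site) and the CArG box. Each is printed 5′ to 3′ on the strand of its gene, with Thbs2 at chr17:14694213-14694512 (minus), Thbs3 at chr3:89214930-89215229 (plus) and Thbs4 at chr13:92794769-92795068 (minus).
Thbs2: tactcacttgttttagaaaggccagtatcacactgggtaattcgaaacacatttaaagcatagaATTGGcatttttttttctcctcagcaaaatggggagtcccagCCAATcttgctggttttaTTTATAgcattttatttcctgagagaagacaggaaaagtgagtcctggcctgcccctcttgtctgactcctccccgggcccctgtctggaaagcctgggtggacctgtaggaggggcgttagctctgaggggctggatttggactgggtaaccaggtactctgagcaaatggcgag
Thbs3: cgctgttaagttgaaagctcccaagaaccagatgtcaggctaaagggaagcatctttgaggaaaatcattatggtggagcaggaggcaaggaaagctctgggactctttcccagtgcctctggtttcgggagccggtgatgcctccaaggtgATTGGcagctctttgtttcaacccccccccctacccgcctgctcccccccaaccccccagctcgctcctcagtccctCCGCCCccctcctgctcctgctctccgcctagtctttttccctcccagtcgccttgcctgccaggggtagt
Thbs4: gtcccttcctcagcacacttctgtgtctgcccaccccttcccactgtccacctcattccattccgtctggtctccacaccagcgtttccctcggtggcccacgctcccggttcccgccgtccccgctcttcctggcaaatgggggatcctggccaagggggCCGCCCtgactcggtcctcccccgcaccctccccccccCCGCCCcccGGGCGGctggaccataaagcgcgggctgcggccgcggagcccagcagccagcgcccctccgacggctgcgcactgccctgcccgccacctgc

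The 3 windows differ in their base composition, with 48.3% G and C in Thbs2, 59.0% in Thbs3 and 72.0% in Thbs4, against a median of 52.7% over the 32851 promoters of the table. Thbs2 holds 2 CCAAT matches and 1 TATAAA match, which is on the opposite strand and starts at position -126 from the gene start. Thbs3 holds 1 CCAAT match at -98 and 1 GGGCGG match at -21. Thbs4 holds 3 GGGCGG matches and no CCAAT. Of all promoters in the table, 37.4% hold CCAAT, 35.7% hold GGGCGG and 13.6% hold TATAAA. None of the 3 windows holds the AP-1 motif, found in 7.81% of promoters, or a CArG box, found in 1.63%. These are letter matches and no evidence of binding.

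The nearest protein-coding genes on each side of the members in the RefSeq annotation were read from the same fit. They lay at unlike distances. The gap was 768998 bases for Rasgrp1 and 260709 for Smoc2, against 1272 for Mtx1 and 285 for Crtc1. Mtx1, which encodes the mitochondrial import protein metaxin 1 and is transcribed away from Thbs3 next to its promoter, was lower at both times, by log2 changes of -0.48 ± 0.08 at 14 days (limma adjusted p = 0.000709) and -0.38 ± 0.08 at 3 days (limma adjusted p = 0.000919). Muc1, on the other side of Thbs3, was called at neither time. Mtx3, a further metaxin gene and the neighbour of Thbs4, was lower at both times, by -0.33 ± 0.10 at 14 days (limma adjusted p = 0.0244) and -0.89 ± 0.10 at 3 days (limma adjusted p = 3.37e-06). Crtc1, beside Comp, had a value of 0.02 at 14 days that missed the threshold and was lower at 3 days by -0.26 (limma adjusted p = 0.925 and 0.0314), and Upf1 on its other side was called at neither. Smoc2, a matricellular gene next to Thbs2, had a value of 0.15 at 14 days (limma adjusted p = 0.187) and fell by 0.71 at 3 days (limma adjusted p = 4.52e-06). Rasgrp1, beside Thbs1, was higher at 3 days by 1.35 ± 0.41 (limma adjusted p = 0.00999) with a value of 0.65 at 14 days (limma adjusted p = 0.249). Serinc5, on the other side of Thbs4, was lower at 3 days by -0.22 (limma adjusted p = 0.0257), and Fsip1 and Wdr27 did not pass the filter.

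The 10 scanner arrays lay on 3 slides, and each slide held more than 1 group. With the slide as a block, all 5 genes kept their calls at MI 14 days against sham, with log2 changes of 5.73 for Comp, 3.52 for Thbs4, 2.90 for Thbs1, 1.69 for Thbs3 and 1.51 for Thbs2. Within slides, Comp was 5.69 above sham on slide 1 (1 MI 14 days array, 2 sham) and 5.63 on slide 3 (3 and 1). Thbs1 at 3 days was 4.02 above sham on slide 2 and 3.96 on slide 3, with 1 array of each group per slide. The fall of Comp at 3 days was -0.47 on slide 2 and -0.997 on slide 3, and with the slide as a block it was -0.75 and past no threshold (limma adjusted p = 0.183). Between the times, slide 3 alone held both MI groups (3 MI 14 days arrays, 1 MI 3 days array). There the differences at 14 days over 3 days were 6.63 for Comp, 1.24 for Thbs4, 0.65 for Thbs3, -0.0028 for Thbs2 and -0.79 for Thbs1. With the slide as a block the Thbs2 value was 0.03 and the Thbs1 value -0.96, neither past the threshold (limma adjusted p = 0.963 and 0.23), and the other 3 genes kept their calls.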

How the data were processed

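Heart RNA of each sample was hybridised to an Agilent SurePrint G3 mouse array in 1 colour. The authors deposited a value table of linear Cy3 intensity per probe and array, and scanner output for 10 of the 14 arrays, made with Agilent Feature Extraction 10.7.3.1 per the file headers. Single-spot probes had equal values in both (relative tolerance 1e-05). The tool limma is named without a role in the submitters' processing notes. The deposited flags (other values) for signal well above background set the filter.

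Here log2 of the deposited intensity was taken and the array's 75th percentile over 55482 non-control probes subtracted. The files hold no gene name column, so probes were named through RefSeq accessions (27144 probes, 20614 symbols). Tested were the 32257 probes that, in at least 1 group, were well above background on all its scanner arrays, and the probe with the highest mean stood for a gene. The 3 groups were fitted with limma 3.58.1 in R 4.3.3, two-sided, and checked on simulated data. Permutation tests used Python 3.11.15 and were exact. Precision is limited by the number of arrays. The planned normexp alternative (offset 50) used median signals in place of mean signals.

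The members and lists were chosen with earlier results of these data known. Named were the members, the 3 largest changes past the threshold in each direction per list, list genes whose role is described, the 5 genes nearest by profile, and genomic neighbours, except 1 list gene that is not reported here.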

Additional observations from a re-analysis of the deposited data

Results flagged for a closer look

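All 5 genes were marked because their change against sham differed between 14 and 3 days, by the limma contrast of MI 14 days against MI 3 days, which is the difference of the 2 changes and shares the sham arrays between them. The log2 difference was 6.88 for Comp (limma adjusted p = 9.53e-10), 1.69 for Thbs4 (6.01e-06), 1.004 for Thbs3 (3.07e-05), 0.78 for Thbs2 (0.0261) and -1.13 for Thbs1 (0.0182). Over all genes tested, 33.6% were called higher and 26.9% lower in this contrast. Every MI 14 days array was above every MI 3 days array for Comp, Thbs4 and Thbs3, while arrays of the 2 groups overlapped for Thbs2 and Thbs1. No array of the 5-array or 4-array groups stood apart from its group in any of the 5 genes by Dixon's test.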

How the results depend on the processing

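At MI 14 days against sham, all 5 genes stayed past the threshold with their direction under every alternative run, and the count was 5 without any 1 array. At MI 3 days against sham the count was 5 without any 1 array. Comp there lost its call on the 10 scanner arrays alone (-0.74, limma adjusted p = 0.142), with normexp background correction of them (-0.62, 0.11) and with the slide as a block (-0.75, 0.183). The count is then 4, and these alternatives hold 2 of the 5 MI 3 days arrays. At MI 14 days against MI 3 days the count of 5 was 3 on the 10 scanner arrays, 3 with the slide as a block, 3 by the exact permutation test and 4 to 5 without 1 array. Thbs1 and Thbs2 were the genes that lost their call in these, Thbs1 with -0.90 on the scanner arrays (limma adjusted p = 0.142). For Thbs2 the difference was 0.24 on the scanner arrays (0.607), 0.13 with normexp (0.706) and 0.03 with the slide as a block (0.963). It was also past the threshold no longer with no filter on dim probes (0.0505), with array weights (0.58, 0.0514) or by the permutation test (exact p = 0.0635). On the scanner arrays the MI 3 days group is replicates 4 and 5, which were the highest of their group in Thbs2, Thbs3 and Thbs4. The causes were not tested. Pairs of members with unequal change numbered 26 of 30, and 26 to 27 without 1 array. On the scanner arrays or with normexp the count was 0. With 4 sham, 4 MI 14 days and 2 MI 3 days arrays, permutation tests have too few reassignments to pass the threshold after adjustment in any comparison. That 0 was therefore fixed in advance and shows nothing about the pairs. No result changed direction in these refits. Within slide 3, which held 1 MI 3 days array, the Thbs2 difference between the times was -0.0028. Replicate numbers are in the labels of each group, but same-numbered arrays did not deviate together (r from -0.13 to 0.22 over 13 pairs, against -0.27 to 0.19 over 52 others). With a replicate block the counts were 5, 5 and 4, the call lost being Thbs2 between the times (0.78, limma adjusted p = 0.0629).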

Other observations

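Markers of other cell types in the border zone gave values beside those of the report. The counts below stand beside shares over all genes tested. These were 15.9% higher and 24.2% lower at 14 days, and 29.8% higher and 40.5% lower at 3 days. Of 6 neutrophil markers none was called at 14 days, and at 3 days 5 were higher and 1 lower. Mmp8, a neutrophil collagenase and 1 of those 5, was above background in the MI 3 days group alone. There it was at least 13.8-fold higher than sham. Of 6 endothelial markers, which stand for the cells whose growth Thbs1 and Thbs2 restrain, none was higher and 1 lower at 14 days, and 1 was higher and 2 lower at 3 days. Their summed signal was 92.4 to 107.5 times the 75th percentile at MI 14 days, 77.8 to 101 at MI 3 days and 92.2 to 104 in sham hearts. Of 6 smooth muscle and pericyte markers none was called at 14 days, and 3 were higher and 3 lower at 3 days. The 7 cardiomyocyte markers were all lower at 3 days, and 2 were lower at 14 days. Of 7 skeletal muscle markers, 3 passed the filter, 1 higher and 1 lower at 14 days, and 2 higher and 1 lower at 3 days.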
